A study of Mus musculus with 6 samples.

Results

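The 41 genes described here encode enzymes that make, remodel and break down phospholipids and sphingolipids. They were named one by one as a list of pathway members, and all 41 were found as a single row among the 43760 rows of the deposited table of estimated counts. RNA was sequenced from 3T3-L1 cells, a mouse fibroblast line of wild-type genotype that becomes fat-storing adipocytes under a hormonal cocktail. Day 7 cells had been differentiated with IBMX, insulin, dexamethasone and roziglitazone, the labels' spelling of rosiglitazone (3 libraries), and day 0 cells were harvested undifferentiated (3 libraries). The line is the only model used, and whether each library is a culture of its own is not given by the labels, so every p-value reflects library-to-library spread that may be technical. Differentiation, the cocktail itself and 7 days of culture separate the groups jointly and cannot be told apart.

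Phospholipids form the membranes of a cell and the single layer around its lipid droplets. Phosphatidylcholine and phosphatidylethanolamine are made by parallel routes in which choline or ethanolamine is phosphorylated, activated as a CDP compound and joined to diacylglycerol. Diacylglycerol is also the last precursor of triglyceride, so these routes meet fat storage at a shared substrate. Sphingolipids start from serine and a fatty acid, pass through ceramide, and end as sphingomyelin, glycosphingolipids or the signalling lipid sphingosine 1-phosphate.

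The libraries held 7655818 to 16987079 counts, and 13500 to 29409 of these fell on the 41 genes. Adipocyte markers summed to 12293 to 15243 CPM at day 7, against 525 to 557 CPM at day 0, and all 10 rose. Fibroblast and preadipocyte markers summed to 3525 to 5459.5 CPM at day 7, against 12111 to 13926 CPM at day 0, and all 9 that were tested fell. Leukocyte markers summed to 2.85 to 5.43 CPM at day 7, against 11.1 to 12.7 CPM at day 0, with Fcgr1 and Cd3e at 0. Only Cd14 of these 9 markers was tested, and it fell, averaging 2.59 CPM at day 7 and 10.5 CPM at day 0. Cd68, not tested, was higher at day 7, averaging 1.25 CPM, against 0.307 CPM at day 0. Endothelial markers stayed at or below 1.77 CPM in every library (Emcn and Tie1 at 0), epithelial markers at or below 0.250 CPM (Epcam and Cdh1 at 0), and skeletal muscle markers at or below 4.21 CPM (Myod1, Myog and Myh1 at 0). Mb, of the muscle list, averaged 1.96 CPM at day 7 and 0.0207 CPM at day 0. Pecam1, of the endothelial list, averaged 1.01 CPM at day 7 and 0.30 CPM at day 0. Krt5, of the epithelial list, went the other way, at 0 CPM at day 7 and 0.204 CPM at day 0. Mb, Pecam1 and Krt5 were not tested, and their days did not overlap. The part of these shifts in the results below was not tested. In such bulk samples, fewer cells of a type and less RNA per cell cannot be told apart. The day 7 columns all carry the same replicate number in the table and are named by their position in it. The third day 7 column was the shallowest, and its members' median log2 difference from the day 0 mean was 0.23, against 0.10 in the first and 0.01 in the second.

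Day 7 was set against day 0 to find which of these genes differ between differentiated and undifferentiated cells. Levels are CPM (counts relative to the library size scaled by the TMM method), and changes are called at an adjusted p under 0.05 in edgeR's quasi-likelihood test, adjusted by Benjamini-Hochberg over all 12354 rows tested. Of the 41 genes 39 were tested, 14 rose and 10 fell. The share called was 61.5% of the tested members, against 60.0% of all tested rows, and it was 35.9% against 30.8% for rises and 25.6% against 29.2% for falls. Their number of calls was thus close to the background, and what follows describes which enzymes moved and how far. Rises of at least 2-fold were called for 7 members (17.9%, against 16.0% of all rows) and falls of that size for 6 (15.4%, against 17.7%). The median log2 fold change was 0.22 over the tested members and 0.02 over all tested rows. The groups did not overlap for 25 members, 64.1% of those tested, against 68.3% of all tested rows. Scaled by total counts alone, 8 members rose and 10 fell, so that 44.4% of called members rose, against 58.3% with TMM. That scaling moved the median log2 fold change of all rows by -0.23 and that of the members to -0.02. The TMM factor was lowest in the second day 7 column, at 0.778, against 0.963 to 1.14 in the other libraries. The number that fell was 6 without day 0 replicate 1 and 6 without day 0 replicate 2, and the median of the members was 0.04 without the third day 7 column. In every one of 14 alternative settings 14 members kept their call: Pcyt2, Chpt1, Pemt, Lpcat3, Lpgat1, Cers4, Sgms2 and Smpd1 rose, and Pgs1, Lpcat1, Lpcat4, Sptlc2, Ugcg and Asah1 fell.

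**Figure D1:**
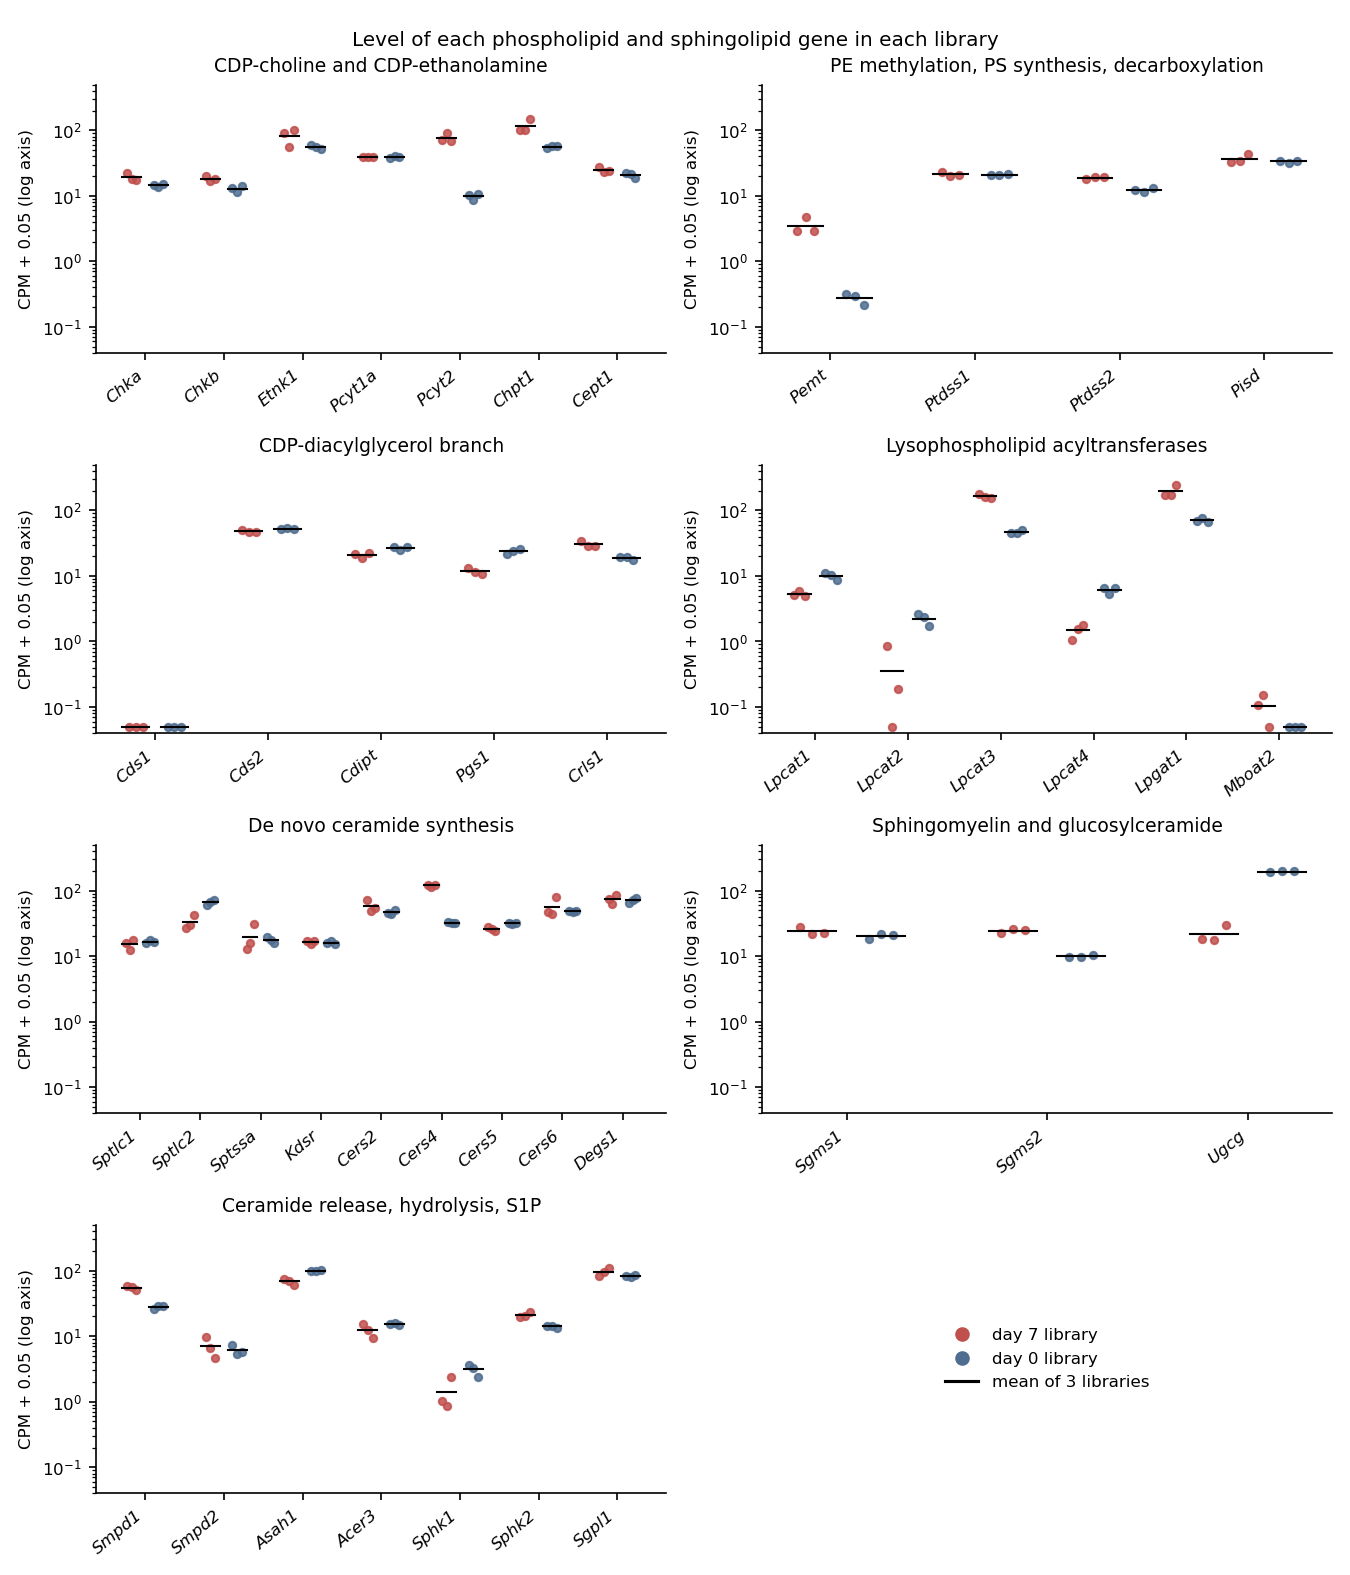
Level of each member in each library, in CPM with 0.05 added, on a log axis, with 1 panel for each role. Red points are the day 7 libraries, blue points the day 0 libraries and black lines the means of 3 libraries. Pcyt2, Pemt, Lpcat3 and Cers4 lie higher in every day 7 library than in any day 0 library, and Ugcg and Lpcat4 lie lower.

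In the CDP-choline and CDP-ethanolamine routes 5 of 7 members rose and none fell, where 30.8% of all tested rows rose and 29.2% fell. The largest rise was at the ethanolamine branch. Pcyt2, which activates phosphoethanolamine with CTP and so commits it to phosphatidylethanolamine, had 69.9, 91.0 and 67.9 CPM at day 7, against 10.3, 8.70 and 10.6 CPM at day 0. It rose 7.76-fold (log2 fold change 2.96 ± 0.16, SE; edgeR adjusted p = 8.4e-06), with every day 7 library far above every day 0 library. Pcyt1a, the enzyme of the same step in the choline branch, averaged 39.0 ± 0.412 CPM at day 7 and 39.1 ± 1.29 CPM at day 0 (SD, n = 3 each) and did not pass (log2 fold change -0.005 ± 0.09, SE; edgeR adjusted p = 0.96). Chpt1, the choline phosphotransferase of the last step, had 101, 102 and 149 CPM at day 7, against 54.6, 57.5 and 57.3 CPM at day 0. It rose 2.08-fold (log2 fold change 1.05 ± 0.16, edgeR adjusted p = 0.00096), and the third day 7 column was the highest. Its counts were fractional in 2 libraries. Etnk1, an ethanolamine kinase, had 92.0, 55.4 and 99.3 CPM at day 7, against 59.4, 56.2 and 50.9 CPM at day 0. The groups overlap, since the second day 7 column lies among the day 0 libraries, and the call of Etnk1 (log2 fold change 0.57 ± 0.21, edgeR adjusted p = 0.046) was lost with RLE, upper-quartile and total-count scaling, with a filter of 1 CPM, in limma-voom, and without any 1 day 0 replicate or without the first or the third day 7 column. The choline kinases Chka and Chkb averaged 19.3 ± 2.82 and 18.3 ± 1.48 CPM at day 7, against 14.5 ± 0.672 and 12.8 ± 1.21 CPM at day 0 (SD, n = 3 each). Both rose, by 1.33-fold and 1.43-fold, but neither call held with total counts alone, where their log2 fold changes were 0.19 and 0.30. The call of Chka was also lost with upper-quartile factors, without the filter, in DESeq2, without any 1 day 0 replicate and without the first day 7 column, and that of Chkb without day 0 replicate 2. For Chkb, 50.7% of its exon bases also belong to Gm44502 on the same strand, so its reads may be divided. Cept1, which handles both CDP-choline and CDP-ethanolamine, has 24.9% of its exon bases opposite Dennd2d and Dram2, which both rose. Whether the counting used strand is not given, so the level of Cept1 is uncertain. It averaged 24.8 ± 2.13 CPM at day 7 and 20.9 ± 1.75 CPM at day 0 and did not pass. Of these protein-coding genes, read over all their exons, the GENCODE M21 annotation of GRCm38 places Pcyt2 at chr11:120610087-120617936 (minus strand), Pcyt1a at chr16:32430921-32475070 (plus strand), Chpt1 at chr10:88452745-88504073 (minus strand) and Etnk1 at chr6:143167221-143232307 (plus strand).

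Among the genes of phosphatidylethanolamine methylation, phosphatidylserine synthesis and phosphatidylserine decarboxylation, 2 of 4 rose and none fell. Over all tested rows 30.8% rose and 29.2% fell. Pemt, which methylates phosphatidylethanolamine to phosphatidylcholine and is best known from liver, was a low-level gene with 50, 46 and 21 counts at day 7, against 3, 4 and 2 at day 0. This is 2.83, 4.68 and 2.85 CPM at day 7, against 0.263, 0.249 and 0.167 CPM at day 0, a 14.5-fold rise with no overlap (log2 fold change 3.86 ± 0.40, edgeR adjusted p = 0.00012). It was the largest fold change among the tested members. Ptdss2, which makes phosphatidylserine by base exchange from phosphatidylethanolamine, had 18, 19.5 and 19.3 CPM at day 7, against 12.3, 11.2 and 13.3 CPM at day 0. It rose 1.54-fold (log2 fold change 0.63 ± 0.12, edgeR adjusted p = 0.0032), or by 0.39 on the log2 scale with total counts alone, where the call was lost. Ptdss1, which prefers phosphatidylcholine as its substrate, averaged 21.2 ± 1.44 CPM at day 7 and 20.9 ± 0.721 CPM at day 0. Pisd, the mitochondrial decarboxylase that turns phosphatidylserine into phosphatidylethanolamine, averaged 37.0 ± 6.10 CPM at day 7 and 33.4 ± 1.21 CPM at day 0 (SD, n = 3 each). Neither passed the test, and the counts of Pisd were fractional in all 6 libraries, so its level is uncertain. The same annotation places Pemt at chr11:59970614-60046489 (minus strand) and Ptdss2 at chr7:141122382-141157606 (plus strand).

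The CDP-diacylglycerol branch went both ways, with 1 rise and 2 falls among 4 tested genes, where 30.8% of all tested rows rose and 29.2% fell. Crls1, the cardiolipin synthase of mitochondria, had 33.6, 28.2 and 29.1 CPM at day 7, against 19.6, 19.6 and 17.8 CPM at day 0. It rose 1.59-fold without overlap (log2 fold change 0.67 ± 0.12, edgeR adjusted p = 0.0016), a call lost with total counts alone (0.45). Pgs1, which makes phosphatidylglycerol phosphate and stands upstream of Crls1 in the same route, fell to 13, 11.5 and 10.6 CPM at day 7, against 21.6, 24.1 and 26.1 CPM at day 0 (log2 fold change -1.03 ± 0.14, edgeR adjusted p = 0.00044). These are the first committed and the last step of cardiolipin synthesis, and their levels moved in opposite directions. Cdipt, the phosphatidylinositol synthase, had 21.7, 18.6 and 22.3 CPM at day 7, against 27.5, 24.7 and 27.4 CPM at day 0. Its fall (log2 fold change -0.35 ± 0.12, edgeR adjusted p = 0.034) was not called without the filter on low counts, without any 1 of the day 0 replicates or without the second day 7 column. Of the CDP-diacylglycerol synthases, Cds2 averaged 48.0 ± 1.83 CPM at day 7 and 52.6 ± 1.35 CPM at day 0 and did not pass, and Cds1 had a count of 0 in all 6 libraries and was not tested. On GRCm38 the annotation has Crls1 at chr2:132846666-132866785 (plus strand), Pgs1 at chr11:117986292-118024011 (plus strand) and Cdipt at chr7:126975914-126980501 (plus strand).

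Of the 5 tested lysophospholipid acyltransferases, 2 rose and 3 fell, where 60.0% of all tested rows were called, and the call of Lpcat2 was lost without day 0 replicate 1 or 2. These enzymes put a fatty acid back onto a lysophospholipid and so set which acyl chains membranes carry. Lpcat3, which favours polyunsaturated chains, had 180, 162 and 157 CPM at day 7, against 45.4, 45.3 and 50.3 CPM at day 0. It rose 3.54-fold (log2 fold change 1.82 ± 0.11, edgeR adjusted p = 1.3e-05), and all its day 7 libraries lay above those of day 0. Lpgat1, first described as a lysophosphatidylglycerol acyltransferase, averaged 196 ± 42.5 CPM at day 7 and 70.1 ± 4.98 CPM at day 0, a 2.79-fold rise with the highest level, 245 CPM, in the third day 7 column. Lpcat4 fell to 1.02, 1.53 and 1.77 CPM at day 7, against 6.40, 5.34 and 6.42 CPM at day 0 (log2 fold change -2.13 ± 0.25, edgeR adjusted p = 0.00022). Lpcat2, an enzyme of platelet-activating factor synthesis in inflammatory cells, had 14, 0 and 1 counts at day 7, against 29, 37 and 20 at day 0. As levels these are 0.793, 0 and 0.136 CPM at day 7, against 2.54, 2.30 and 1.67 CPM at day 0. The log2 fold change of Lpcat2 was -2.42 ± 0.69 (edgeR adjusted p = 0.017) and reached -4.98 without the first day 7 column, which held nearly all its day 7 counts. Lpcat1, known for making the saturated phosphatidylcholine of lung surfactant, averaged 5.23 ± 0.501 CPM at day 7 and 10.02 ± 1.25 CPM at day 0 (SD, n = 3 each) and fell. Mboat2 had 2 counts in all at day 7 and 0 at day 0 and was not tested. Their GRCm38 gene positions put Lpcat3 at chr6:124663027-124704418 (plus strand), Lpcat4 at chr2:112239468-112247111 (plus strand) and Lpcat2 at chr8:92855339-92919279 (plus strand).

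Lpcat3 and Lpcat1 act on the same lipid and changed in opposite directions, so the bases before their starts are shown for comparison. The sequences are from RefSeq promoter windows on GRCm38.p6, 5′ to 3′ on the gene's strand (plus for both), cut to the upstream part that lies in no GENCODE exon. Lpcat3 is at chr6:124662854-124663026 and Lpcat1 at chr13:73466981-73467196. Capitals mark, on either strand, the CCAAT box (CCAAT), the GC box (GGGCGG), the E-box (CACGTG), a nuclear receptor half-site (AGGTCA) or the TATA box (TATAAA).
Lpcat3: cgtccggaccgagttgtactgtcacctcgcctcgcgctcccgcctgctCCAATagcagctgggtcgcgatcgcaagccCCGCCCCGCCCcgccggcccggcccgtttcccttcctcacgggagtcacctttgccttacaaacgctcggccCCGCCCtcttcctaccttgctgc
Lpcat1: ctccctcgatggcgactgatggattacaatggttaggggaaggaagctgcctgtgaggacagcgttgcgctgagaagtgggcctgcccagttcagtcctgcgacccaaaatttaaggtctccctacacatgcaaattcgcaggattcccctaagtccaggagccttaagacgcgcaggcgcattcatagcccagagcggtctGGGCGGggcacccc
The Lpcat3 stretch of 173 bases holds 3 GC boxes, of which a pair overlap, and 1 CCAAT box, and the Lpcat1 stretch of 216 bases holds 1 GC box. The stretches end 77 bases before the RefSeq start for Lpcat3 and 34 bases before it for Lpcat1. Their motif counts thus cover unlike parts of the promoters. Over the full 250 bases before each start, 59% of the 61 windows of 37 matched members held a GC box, against 32.7% of all 32851 windows in the table. A CCAAT box was in 36.1% of member windows, against 33.8% of all, an E-box in 13.1% against 6.02%, a nuclear receptor half-site in 13.1% against 14%, and a TATA box in 4.92% against 12.4%. A gene with several starts counts once for each, 6 times for Sgms2, so the member windows are not independent. For 48 of the 61 windows the bases after the start lay in a GENCODE transcript of the gene. A match describes the letters of a window and is neither a bound site nor a cause.

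**Figure D2:**
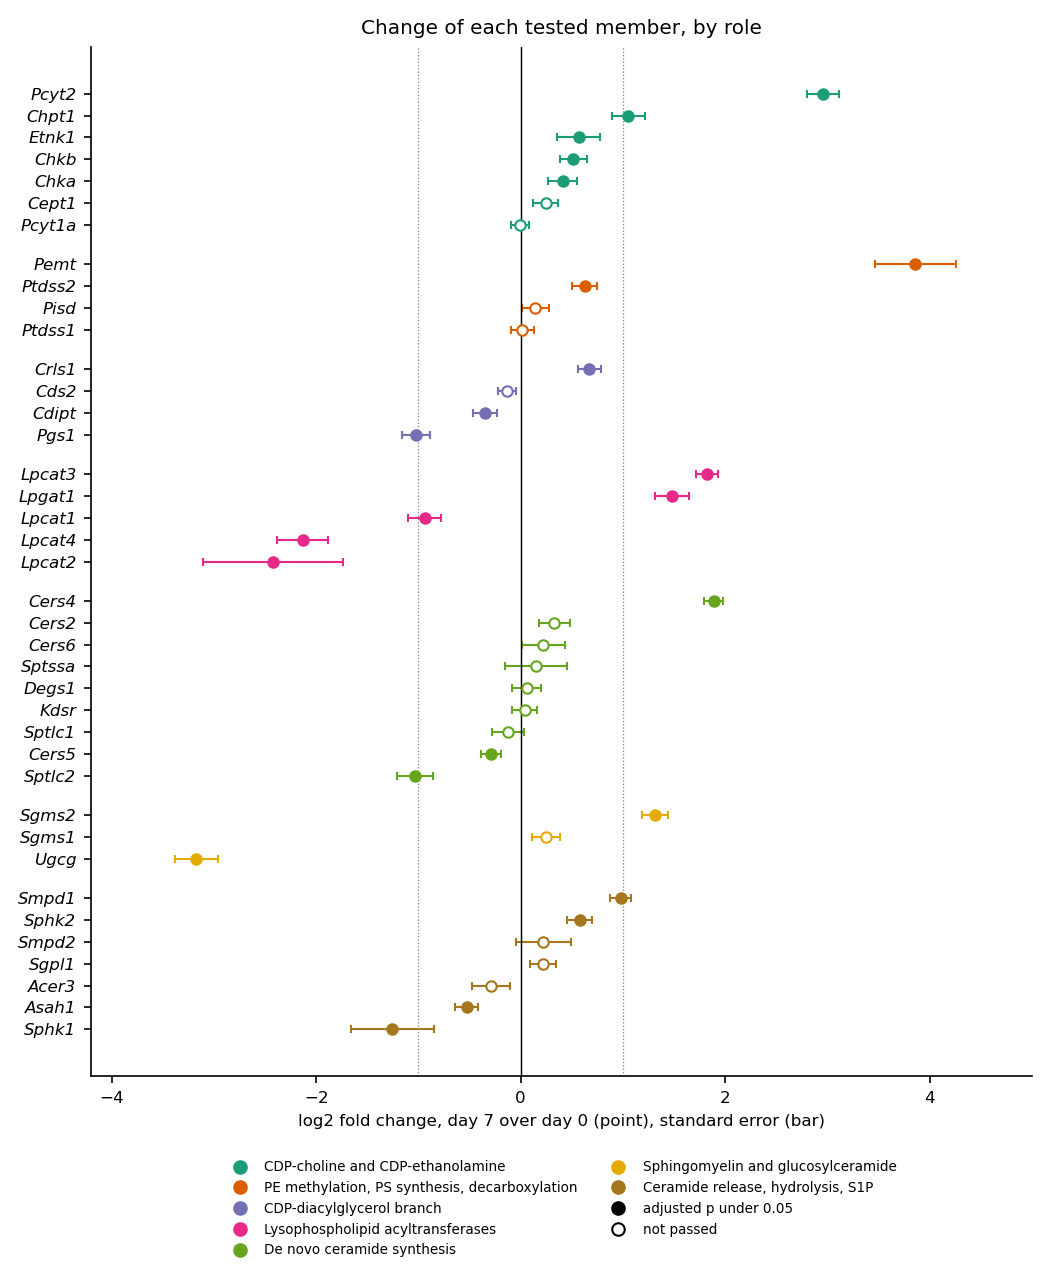
Log2 fold change of day 7 over day 0 for the 39 tested members, grouped by role in colour, with standard errors as bars. Filled points passed the adjusted p of 0.05 and open points did not, and dotted lines mark 2-fold changes. Pemt at 3.86 and Pcyt2 at 2.96 are the highest and Ugcg at -3.17 is the lowest, while most genes of de novo ceramide synthesis lie near 0.

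In de novo ceramide synthesis 1 of 9 genes rose, 2 fell and 6 did not pass. The shares over all tested rows were 30.8% for rises and 29.2% for falls. Cers4, a ceramide synthase, had 121, 114 and 123 CPM at day 7, against 32.8, 32.1 and 31.9 CPM at day 0. It rose 3.70-fold (log2 fold change 1.89 ± 0.09, edgeR adjusted p = 6.6e-06) with little spread within either day. Sptlc2, a catalytic subunit of serine palmitoyltransferase, the first enzyme of the route, fell to 26.5, 29.3 and 41.7 CPM at day 7, against 60.8, 66.6 and 71.1 CPM at day 0 (log2 fold change -1.03 ± 0.17, edgeR adjusted p = 0.0014). Its partner Sptlc1 averaged 15.1 ± 2.62 CPM at day 7 and 16.4 ± 0.736 CPM at day 0, and the small subunit Sptssa averaged 19.7 ± 9.41 CPM at day 7 and 17.5 ± 1.89 CPM at day 0 (SD, n = 3 each). Neither passed, and the wide spread of Sptssa comes from the third day 7 column at 30.4 CPM, against 13 and 15.6 CPM in the other day 7 columns. Cers5 had 27.3, 25.5 and 24.4 CPM at day 7, against 32.0, 31.2 and 31.5 CPM at day 0. Its fall was small (log2 fold change -0.29 ± 0.10, edgeR adjusted p = 0.033) and was not called in DESeq2, without the filter on low counts, without any 1 day 0 replicate or without the second day 7 column. Kdsr, which reduces ketosphinganine, averaged 16.5 ± 1.03 CPM at day 7 and 16.0 ± 0.918 CPM at day 0. Degs1, the desaturase that completes ceramide, averaged 74.8 ± 12 CPM at day 7 and 71.7 ± 6.53 CPM at day 0. Cers2, which makes very-long-chain ceramides, averaged 58.1 ± 11.7 CPM at day 7 and 46.3 ± 3.17 CPM at day 0. Cers6 averaged 56.7 ± 19.2 CPM at day 7 and 48.3 ± 1.45 CPM at day 0, with the third day 7 column at 78.8 CPM and the other day 7 columns at 46.9 and 44.3 CPM. These 4 genes did not pass. On GRCm38 these genes are annotated as Cers4 at chr8:4493026-4531680 (plus strand), Sptlc2 at chr12:87305058-87388355 (minus strand) and Cers5 at chr15:99734881-99772885 (minus strand).

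Sptlc2 is shown for its start region since it fell where most genes of its route did not pass. The 250 bases before its RefSeq start, at chr12:87388356-87388605 on the minus strand of GRCm38.p6, read as follows, with the same motifs in capitals.
Sptlc2: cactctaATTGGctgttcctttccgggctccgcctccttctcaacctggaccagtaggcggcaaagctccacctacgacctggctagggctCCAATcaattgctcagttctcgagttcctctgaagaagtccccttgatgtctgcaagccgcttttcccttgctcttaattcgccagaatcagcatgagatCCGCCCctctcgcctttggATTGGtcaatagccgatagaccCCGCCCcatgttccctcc
This window holds 3 CCAAT boxes and 2 GC boxes.

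Compared per kilobase of exon, Cers4 was second to Cers2 among the ceramide synthases in every day 7 library and the lowest of the 4 in every day 0 library. Its share of the summed level of Cers2, Cers4, Cers5 and Cers6 was 23.4%, 26.8% and 24.8% in the day 7 columns, against 9%, 9.19% and 8.52% in the day 0 replicates. Cers5 held 18.3%, 20.8% and 17% at day 7, against 30.4%, 30.9% and 29.1% at day 0. Cers2 had the largest share on both days, 40.1% ± 5.02 at day 7 and 42.5% ± 1.5 at day 0, which overlap, and Cers6 held 16.2% ± 4.93 at day 7 and 18.4% ± 0.303 at day 0 (SD, n = 3 each). Among the 6 acyltransferases that are members, Lpcat3 took 65.0% ± 5.76 of the summed level per kilobase at day 7 and 50.4% ± 2.81 at day 0. Lpgat1 took 32.7% ± 5.82 at day 7 and 32.3% ± 2.31 at day 0. Other acyltransferases of the pathway are not in this sum, among them Agpat2, at 180 CPM at day 7 and 10.5 CPM at day 0. These shares depend on the exon length used, which is the union of all GENCODE exons of a gene.

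**Figure D3:**
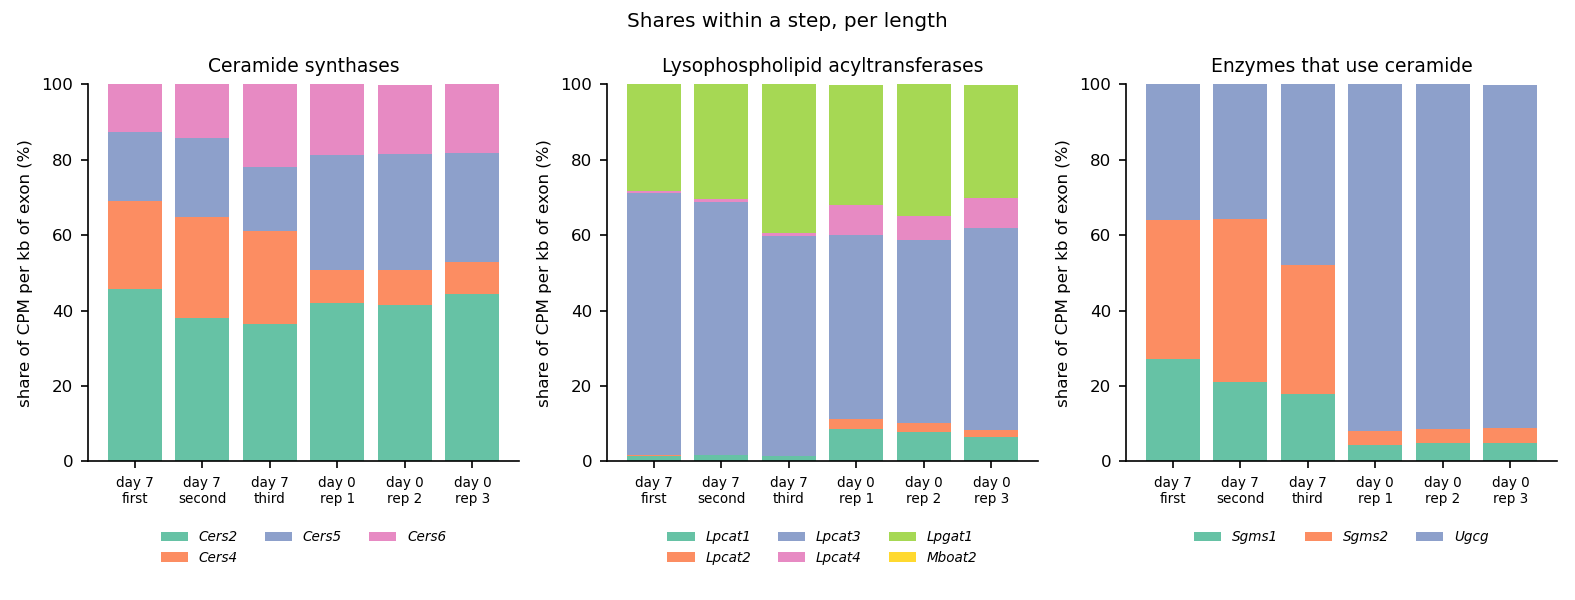
Share of each enzyme in the summed CPM per kilobase of exon, in percent, with 1 stacked bar per library and the day 7 columns on the left. The panels hold the member ceramide synthases, the member lysophospholipid acyltransferases, and Sgms1, Sgms2 and Ugcg, which use ceramide. Each sum covers only the genes drawn. Cers4 widens to 23.4% to 26.8% at day 7, and Ugcg narrows to 35.6% to 47.9%, against 91.2% to 91.9% at day 0.

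Ceramide is turned into sphingomyelin or glucosylceramide, and the genes of these uses moved apart. Ugcg, the glucosylceramide synthase that opens glycosphingolipid synthesis, fell to 18.2, 17.8 and 29.6 CPM at day 7, against 193, 197 and 196 CPM at day 0. The log2 fold change was -3.17 ± 0.21 (edgeR adjusted p = 1.7e-05), the largest fall among the tested members, and the third day 7 column was the highest of its day. Per kilobase of exon Ugcg ranked 25 of the 41 genes at day 7, with 4.196 ± 1.29 CPM per kilobase, and 1 at day 0, with 37.5 ± 0.482 CPM per kilobase (SD, n = 3 each). Lpcat3 ranked 1 at day 7 and 4 at day 0, with 50.9 ± 3.69 CPM per kilobase at day 7 and 14.4 ± 0.872 at day 0. Sgms2, the sphingomyelin synthase of the plasma membrane, had 22.3, 25.9 and 25.3 CPM at day 7, against 9.56, 9.57 and 10.3 CPM at day 0, and rose 2.49-fold (log2 fold change 1.31 ± 0.12, edgeR adjusted p = 7.9e-05). Sgms1, the Golgi sphingomyelin synthase, averaged 23.8 ± 3.40 CPM at day 7 and 20.1 ± 1.65 CPM at day 0 and did not pass (edgeR adjusted p = 0.16). Of the summed level of these 3 genes per kilobase, Ugcg held 36%, 35.6% and 47.9% at day 7, against 91.9%, 91.4% and 91.2% at day 0. The GRCm38 annotation has Ugcg at chr4:59189257-59222833 (plus strand) and Sgms2 at chr3:131318985-131491411 (minus strand).

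In ceramide release, ceramide hydrolysis and sphingosine 1-phosphate metabolism 2 of 7 genes rose and 2 fell. Of all tested rows 30.8% rose and 29.2% fell. Smpd1, the acid sphingomyelinase of lysosomes, had 57.5, 56.1 and 50.6 CPM at day 7, against 26.0, 28.5 and 29.0 CPM at day 0, a 1.97-fold rise without overlap (log2 fold change 0.98 ± 0.10, edgeR adjusted p = 0.00013). The 250 bases before its RefSeq start, at chr7:105554110-105554359 on the plus strand of GRCm38.p6, are shown beside this rise, with the same motifs in capitals.
Smpd1: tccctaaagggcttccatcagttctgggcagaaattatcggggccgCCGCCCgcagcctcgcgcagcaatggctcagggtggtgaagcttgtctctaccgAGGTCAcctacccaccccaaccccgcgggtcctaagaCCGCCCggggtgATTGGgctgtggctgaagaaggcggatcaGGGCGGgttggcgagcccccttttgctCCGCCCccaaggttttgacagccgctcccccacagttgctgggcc
They hold 4 GC boxes, 1 CCAAT box and 1 nuclear receptor half-site. Asah1, the acid ceramidase that splits ceramide into sphingosine and a fatty acid in lysosomes, averaged 68.8 ± 6.88 CPM at day 7 and 99.3 ± 2.65 CPM at day 0 and fell (SD, n = 3 each; edgeR adjusted p = 0.0038). Of the sphingosine kinases, Sphk2 had 19.6, 20.4 and 23.4 CPM at day 7, against 14.3, 14.4 and 13.5 CPM at day 0, and rose 1.49-fold (log2 fold change 0.58 ± 0.12, edgeR adjusted p = 0.0044). That call was lost with total counts alone (0.35). Of the exon bases of Sphk2, 21.9% lie opposite Dbp and Rpl18, which had 46.5 and 79.3 CPM at day 7, against 25.4 and 146 CPM at day 0, and whether the counting used strand is not given. Sphk1 had 17, 8 and 17 counts at day 7, against 41, 52 and 28 at day 0. At 0.964, 0.814 and 2.31 CPM at day 7, against 3.60, 3.23 and 2.34 CPM at day 0, the third day 7 column nearly met the lowest day 0 replicate. The fall of Sphk1 (log2 fold change -1.26 ± 0.41, edgeR adjusted p = 0.028) was not called without day 0 replicate 1, without day 0 replicate 2, or without the first or the second day 7 column. Sgpl1, the lyase that ends the pathway, averaged 97.1 ± 14.1 CPM at day 7 and 83.3 ± 2.37 CPM at day 0. Acer3, the alkaline ceramidase, averaged 12.4 ± 3.07 CPM at day 7 and 15.3 ± 0.406 CPM at day 0. Smpd2, a neutral sphingomyelinase, averaged 6.92 ± 2.47 CPM at day 7 and 6.10 ± 0.970 CPM at day 0. These 3 did not pass. Of the exon bases of Smpd2, 20.3% lie opposite Mical1, which fell to 6.26 CPM at day 7, against 18.7 CPM at day 0. The level of Smpd2 is uncertain where strand use is not given. Annotated on GRCm38 are Smpd1 at chr7:105554360-105558389 (plus strand), Sphk2 at chr7:45709467-45718002 (minus strand) and Sphk1 at chr11:116530925-116536674 (plus strand).

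Ratios of paired enzymes were taken within each library, where the scaling between libraries plays no part. Of 13 pairs listed 12 could be computed, since Cds1 had no counts. The days did not overlap for 11 pairs, each at the smallest p that 3 against 3 libraries allow in an exact two-sided permutation test (p = 0.1, 0.11 after Benjamini-Hochberg adjustment over 12 pairs), so no pair could pass 0.05. The Pcyt1a/Pcyt2 ratio was -0.84, -1.21 and -0.81 on the log2 scale at day 7, against 1.87, 2.21 and 1.89 at day 0, a difference of -2.94. Per kilobase of exon its mean was -1.73 at day 7 and 1.22 at day 0, so Pcyt2 had the higher level of the pair at day 7 and Pcyt1a at day 0. Lpcat3/Lpcat1 was 5.16, 4.80 and 4.98 at day 7, against 2.02, 2.14 and 2.53 at day 0. The Cers4/Cers2 ratio was 1.06 ± 0.25 at day 7 and -0.52 ± 0.11 at day 0, and Crls1/Cdipt was 0.54 ± 0.13 at day 7 and -0.48 ± 0.15 at day 0 (SD, n = 3 each). Sphk1/Sphk2 was -4.06 ± 0.67 at day 7 and -2.21 ± 0.27 at day 0, and Sgms1/Sgms2 was -0.045 ± 0.31 at day 7 and 1.03 ± 0.12 at day 0. Sptlc1/Sptlc2 was higher at day 7 by 0.91, Chpt1/Cept1 by 0.79, Smpd1/Smpd2 by 0.84 and Cers6/Cers5 by 0.47, the last by 0.17 without the third day 7 column. The ratios with Cept1, Smpd2 or Sphk2 carry the strand limit given above for these genes. Ptdss1/Ptdss2 differed by -0.62 at day 7. The ratio of the choline kinases, Chka/Chkb, was 0.07 ± 0.13 at day 7 and 0.18 ± 0.07 at day 0, and these overlap (exact permutation p = 0.30).

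**Figure D4:**
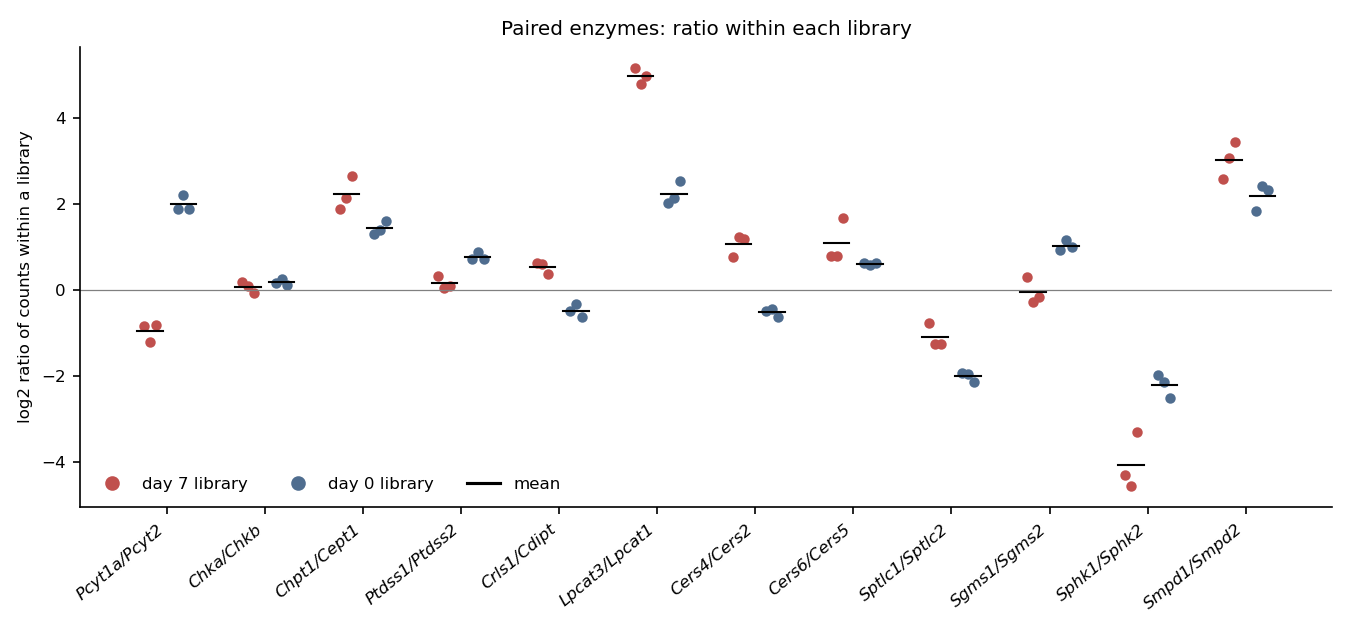
Log2 ratio of the counts of paired enzymes within each library, with the day 7 libraries in red on the left of each pair, the day 0 libraries in blue and the mean of 3 libraries as a black line. The points of the days are apart for 11 of 12 pairs, with the widest gaps for Pcyt1a/Pcyt2 (-2.94) and Lpcat3/Lpcat1 (2.75), and overlap for Chka/Chkb.

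The rest of the pathway was followed in 8 lists with 150 genes found as 1 row, of which 116 were tested, 46 rose and 39 fell. That is 73.3% called, against 60.0% of all tested rows, and the lists were chosen by hand. The background for the counts of each list is 30.8% of all tested rows for rises and 29.2% for falls. Of 19 tested genes of phospholipid synthesis and transport 8 rose and 6 fell. Phospho1, a phosphatase of phosphocholine and phosphoethanolamine, averaged 131 ± 23.0 CPM at day 7 and 0.788 ± 0.342 CPM at day 0, with fractional counts in all 6 libraries and 89.6% of its exon bases shared with Zfp652 on the same strand, so its rise is uncertain. Stard7, a carrier of phosphatidylcholine to mitochondria, rose (log2 fold change 1.62 ± 0.15), and Pcyt1b, the paralog of Pcyt1a, fell to 1.55 ± 0.709 CPM at day 7, against 15.5 ± 1.04 CPM at day 0. Ept1, the ethanolamine phosphotransferase now named Selenoi, averaged 63.3 ± 11.1 CPM at day 7 and 29.96 ± 0.892 CPM at day 0, and rose. The choline transporter genes Slc44a1 and Slc44a2 fell, by 0.80 and 1.39 on the log2 scale. Of 8 other acyltransferase genes 5 rose and 1 fell: Agpat2, a lysophosphatidic acid acyltransferase of triglyceride and phospholipid synthesis, averaged 180 ± 90.3 CPM at day 7 and 10.5 ± 0.639 CPM at day 0, Agpat3 rose with a log2 fold change of 1.15 ± 0.14, and Agpat4 fell with one of -0.67 ± 0.14. Of 32 phospholipase and phosphatidylserine genes 16 rose and 8 fell. Pla2g16, an adipose phospholipase, averaged 165 ± 61.4 CPM at day 7 and 10.1 ± 1.58 CPM at day 0, Abhd3 3.59 ± 0.794 CPM at day 7 and 0.339 ± 0.0849 CPM at day 0, and Pla2g7, a secreted hydrolase of platelet-activating factor, 2.24 ± 1.32 CPM at day 7 and 28.1 ± 0.498 CPM at day 0 (SD, n = 3 each). In ether lipid synthesis 3 of 6 rose and 1 fell, with Gnpat (fractional counts in 3 libraries) at a log2 fold change of 3.48 ± 0.11, Dhrs7b at 1.93 ± 0.32 and Far1 at -0.79 ± 0.13.

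On the sphingolipid side, 4 of 9 other genes of ceramide synthesis and its control rose and 2 fell. The background is again 30.8% of all tested rows for rises and 29.2% for falls. Ormdl3, an inhibitory partner of serine palmitoyltransferase, averaged 139 ± 20.8 CPM at day 7 and 25.3 ± 0.399 CPM at day 0, a log2 fold change of 2.46 ± 0.13. Its relatives Ormdl2 and Ormdl1 rose by 1.04 and 0.57 on the log2 scale, the last a call that was lost with total counts alone (0.33), without any 1 day 0 replicate and without the first or the second day 7 column. Of the exon bases of Ormdl2, 66.7% lie opposite Dnajc14, so its level is uncertain where strand use is not given. Tecr, a reductase of very-long-chain fatty acid synthesis, rose (1.45 ± 0.12), and Cers1 fell to 1.45 ± 0.510 CPM at day 7, against 4.51 ± 0.416 CPM at day 0, though 42.5% of its exon bases are shared with Gdf1 on the same strand. Beyond Ugcg, 5 of 11 genes of sphingomyelin, glycosphingolipids and ceramide transport fell and 2 rose. B4galt5, a lactosylceramide synthase and so the step after Ugcg, averaged 30.8 ± 11.4 CPM at day 7 and 163 ± 6.32 CPM at day 0, and St3gal5, which makes the ganglioside GM3, averaged 14.2 ± 5.37 CPM at day 7 and 28.9 ± 1.16 CPM at day 0 (SD, n = 3 each), and both fell. Samd8 rose by 0.42 and Plekha8 by 0.54 on the log2 scale, calls lost with total counts alone (0.20 and 0.31), and that of Plekha8 also with upper-quartile factors, without any 1 day 0 replicate and without the second or the third day 7 column. Of 19 genes of lysosomal and other breakdown 6 rose and 9 fell: Gm2a, a lysosomal activator protein for ganglioside hydrolysis, averaged 153 ± 84.5 CPM at day 7 and 31.6 ± 1.903 CPM at day 0, Naaa, an acid amidase, 102 ± 10.05 CPM at day 7 and 29.3 ± 1.60 CPM at day 0, and Smpd3, a neutral sphingomyelinase, had 6 counts at day 7 and 36 at day 0.

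In the list of sphingosine 1-phosphate breakdown, transport and receptors 7 of 12 tested genes fell and 2 rose. Of all tested rows 29.2% fell and 30.8% rose. The median log2 fold change of the list was -1.07, against 0.02 over all tested rows. The list was chosen by hand with earlier results of these data known. It also holds genes of lysophosphatidic acid receptors, so its counts and median are not those of sphingosine 1-phosphate genes alone. Of the receptors, S1pr1 averaged 1.28 ± 0.707 CPM at day 7 and 41.9 ± 3.77 CPM at day 0 (log2 fold change -5.21 ± 0.34, edgeR adjusted p = 1.6e-05). S1pr2 averaged 4.19 ± 0.987 CPM at day 7 and 37.4 ± 1.79 CPM at day 0, and S1pr3 averaged 15.1 ± 3.79 CPM at day 7 and 130 ± 9.18 CPM at day 0 (SD, n = 3 each). All 3 fell, and S1pr4 and S1pr5 had no counts in any library. Sgpp1, a phosphatase of sphingosine 1-phosphate, fell by 1.35 on the log2 scale. Hacl1, a peroxisomal lyase of hydroxy fatty acids, and Lpar6, a lysophosphatidic acid receptor, were the genes of the list that rose, with log2 fold changes of 2.40 ± 0.24 and 0.99 ± 0.16, and 31.1% of the exon bases of Hacl1 are shared with Gm49387 on the same strand. Lpar1, the other tested lysophosphatidic acid receptor of the list, fell to 10.5 ± 2.53 CPM at day 7, against 80.98 ± 2.56 CPM at day 0 (SD, n = 3 each).

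**Figure D5:**
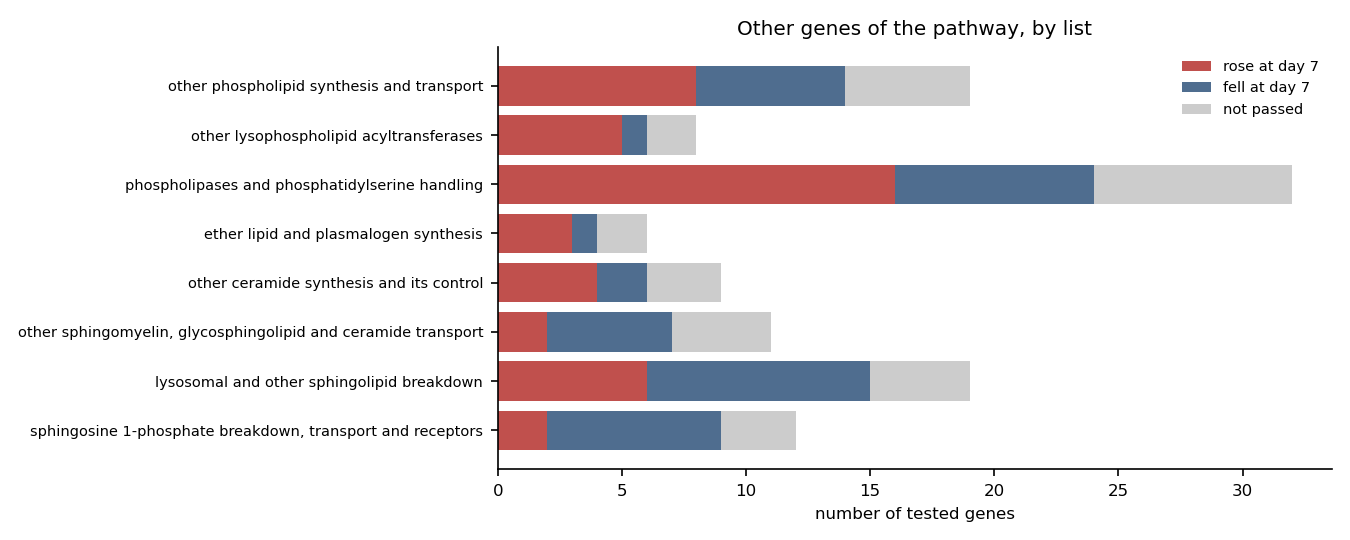
Number of tested genes of the rest of the pathway in each of 8 lists, split into those that rose at day 7 (red), fell at day 7 (blue) or did not pass an adjusted p of 0.05 (grey). The longest red bar is that of phospholipases and phosphatidylserine handling, with 16 of 32 genes. The sphingosine 1-phosphate list, which also holds genes of lysophosphatidic acid receptors, has 7 of 12 genes in blue. Of all tested rows 30.8% rose and 29.2% fell.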

How the data were processed

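RNA was measured in 6 libraries of 3T3-L1 cells, 3 at day 7 and 3 at day 0. The deposited table holds estimated counts per gene, a unit read from its values. Trim Galore 0.6.7, STAR 2.7.10a, Salmon 1.9.0 and build GRCm38 are named per the submitters' processing notes, while the sources used here do not give their roles, the annotation or any filter. A side block of 10 further columns of values was not used. The day 7 columns carry no separate replicate number.

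Counts were rounded, filtered with filterByExpr (10 counts in enough libraries, 15 in total), scaled by TMM and compared with edgeR 4.0.16 (glmQLFTest, R 4.3.3) over 12354 rows, with Benjamini-Hochberg adjustment. Levels are CPM on the TMM-scaled library sizes, with SD of 3 libraries. The standard error is the log2 fold change over the square root of F. Within-library ratios have 0.5 added to each count. Counts were called fractional beyond 0.01 from a whole number. Pairs of libraries of a day differed by more than sampling noise (chi-square per row of at least 6.71), so none was treated as a repeat deposit of another. This does not show that the libraries are separate cultures.

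The members and lists were chosen with earlier results of these data known. Values in every library are given for at most 3 members of a role: the most changed in each direction, then the next, or any whose call a single library decides. Of each other list the 2 most changed that rose and the 1 that fell are named. Ept1, Slc44a1, Slc44a2, Ormdl1, Ormdl2, St3gal5, Sgpp1, S1pr2, S1pr3, Lpar1 and the genes of the other observations were named after their values were seen. Of the 150 other genes 7 were found through a RefSeq synonym. Positions and exon lengths are from GENCODE M21 (GRCm38), and promoter windows from RefSeq. The script was tested on simulated counts. Alternatives were other scalings (RLE, upper quartile, total counts), other filters, DESeq2 1.42.0, limma-voom (limma 3.58.1), removal of the 10 most abundant rows and leaving out each library.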

Additional observations from a re-analysis of the deposited data

How the results depend on the processing

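The 14 members that rose were 8 with total counts alone, 11 to 15 with 1 library left out and 12 to 14 in the other settings, and the 10 that fell were 6 to 10 with 1 library left out and 8 to 10 otherwise. The median log2 fold change of the tested members was -0.02 with total counts alone and 0.042 to 0.27 with 1 library left out, the lowest without the third day 7 column. No called member changed sign in any of the 14 alternatives. The sign turned only for members that did not pass. With total counts alone it did so for Ptdss1 (-0.21), Pisd (-0.082), Sptssa (-0.069), Kdsr (-0.18), Degs1 (-0.16) and Sgpl1 (-0.016), and with upper-quartile factors for Ptdss1 (-0.039) and Kdsr (-0.017). Ptdss1 was also at -0.0011 without the filter and -0.0084 in DESeq2, and Sptssa at -0.013 in limma-voom. With 1 library left out the range was -0.047 to 0.055 for Ptdss1, -0.047 to 0.0091 for Pcyt1a, -0.30 to 0.38 for Sptssa, -0.078 to 0.37 for Cers6, -0.054 to 0.17 for Degs1 and -0.10 to 0.43 for Smpd2. The cause was not tested. The calls of Crls1, Ptdss2 and Sphk2 were lost with total counts alone and in no other setting, and 7 calls were lost when at least 1 library was left out: those of Chka, Chkb, Etnk1, Cdipt, Cers5, Lpcat2 and Sphk1. Acer3 (without the first day 7 column), Cers2 (without the second) and Sgpl1 (without the first) passed only then. Other pathway genes that rose numbered 36 to 48 and those that fell 31 to 41 over the 9 alternatives tried for them. The day 7 minus day 0 differences of the within-library log2 ratios kept their sign in all 8 alternatives. No paired analysis was possible because the 3 day 7 columns all carry the replicate number 1. Depth limits Pemt, Lpcat2, Lpcat4 and Sphk1, which rest on few counts per library.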

Other observations

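Of the pathway genes left untested by the filter on low counts, 3 had at least 30 counts over the day 7 libraries and none at day 0. They were picked by these same counts, so the bounds below describe them and are not a test. The opposite pattern, counts at day 0 and none at day 7, is not described here. Far2, a fatty acyl-CoA reductase of ether lipid synthesis, had 90, 20 and 4 counts in the day 7 columns and 0 at day 0. Taking 3 counts as the floor over the day 0 libraries together, this is at least 43.1-fold higher, or at least 18.4-fold without the first day 7 column, which holds most of the counts. Acer2, the Golgi ceramidase, had 28, 8 and 24 counts at day 7 and 0 at day 0, at least 22.7-fold higher on the same floor and at least 17.2-fold without the third day 7 column. Fa2h, which makes hydroxylated sphingolipids, had 5, 7 and 20 counts at day 7 and 0 at day 0, at least 12.1-fold higher, or at least 5.75-fold without the third day 7 column. The bounds without a column were added after seeing the data. All bounds cover counting error only, and the day 7 columns differ several-fold among themselves for each of these genes.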
